A study of Homo sapiens with 4 samples.

Results

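Fatty acid synthesis, desaturation and elongation were examined through 10 named genes in RKO, an established line of human colon carcinoma. They were chosen by name, with earlier results of these data known, and matched to the symbol in each row of the deposited tables. The members were ACLY, ACACA and FASN for building the chain, SCD, SCD5, FADS1 and FADS2 as desaturases, and ELOVL1, ELOVL5 and ELOVL6 as elongases. Of the 10, 9 were listed among 13092 genes in all, and 8 had reads in both RNA libraries. The compared libraries were 1 of RKO cells overexpressing HADH-S and 1 of control RKO cells labelled wild type, with no other treatment given. HADH is a hydroxyacyl-CoA dehydrogenase of mitochondrial fatty acid oxidation, and the title of the series names a nuclear isoform of it. The vector, the number of clones and the contents of the control cells are not stated in the labels. A HADH-S chromatin immunoprecipitation and its input, both from overexpressing cells, were not analysed here.

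Cytosolic fatty acid synthesis starts from citrate, which ATP citrate lyase (ACLY) cleaves to acetyl-CoA. Acetyl-CoA carboxylase (ACACA) makes malonyl-CoA, fatty acid synthase (FASN) joins these units into palmitate, and endoplasmic reticulum enzymes then lengthen the chain (elongases) and insert double bonds (desaturases). Transcription of many genes of this pathway, though not of every member, is known to be driven by the sterol-regulated SREBP factors, the sterol receptor LXR or ChREBP. Colorectal carcinoma cells are known to synthesise much of their own lipid.

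RKO identity, depth and the label were checked first. The HADH-S library held 6963608 reads over 12612 genes and the control library 6773421 reads over 12501 genes. HADH stood at 54.4 RPKM (reads per transcript kilobase, relative to library size) in the HADH-S library and at 26.5 RPKM in the control library, in the direction of the label, and this 1 row does not separate the isoforms. Of 6 colon epithelial markers, 4 were listed, with a summed level of 111 RPKM in overexpressing cells and 106 RPKM in control cells, while VIL1 and CDH1 were not listed. KRT18 held most of this sum, at 93.8 RPKM in overexpressing cells and 91.7 RPKM in control cells. EPCAM, CDX2 and KRT8 were at 9.57, 4.37 and 2.81 RPKM in overexpressing cells and 8.20, 3.60 and 2.54 RPKM in control cells. None of the 4 leukocyte or 4 endothelial markers was listed, and the listed fibroblast and hepatocyte markers had at most 1 read per library. Among adipocyte markers, which could accompany lipogenic genes, ADIPOQ and LEP were not listed, PLIN1 had 1 read, and CFD was at 4.62 RPKM in overexpressing cells and 3.28 RPKM in control cells.

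Counting intervals that excluded 1 were found mainly in genes that modify a finished chain. Stearoyl-CoA desaturase SCD was the clearest, at 70.0 RPKM in the HADH-S library and 102 RPKM in the control library, a ratio of 0.686. The elongase ELOVL6 and the second stearoyl-CoA desaturase SCD5 were also lower with HADH-S, by smaller factors, whereas FASN was higher by a ratio of 1.17. The other 4 genes with reads in both libraries had ratios whose counting intervals included 1. With 1 library per condition there was no replicate and no test, so all differences describe these 2 libraries. In bulk RNA, fewer cells expressing a gene and less RNA of it per cell cannot be told apart.

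Promoter sequences of the 2 stearoyl-CoA desaturase genes are shown because these paralogues were both lower with HADH-S. Each is the 250 bases before the RefSeq transcription start (GRCh38.p14), written from its upstream end to the start on the strand of the gene. Capitals mark every CCAAT box, the core of NF-Y sites, and every GC box with the letters GGGCGG, a core of Sp1 sites, on either strand. The windows are chr10:100346983-100347232 on the plus strand for SCD and chr4:82798797-82799046 on the minus strand for SCD5.
SCD: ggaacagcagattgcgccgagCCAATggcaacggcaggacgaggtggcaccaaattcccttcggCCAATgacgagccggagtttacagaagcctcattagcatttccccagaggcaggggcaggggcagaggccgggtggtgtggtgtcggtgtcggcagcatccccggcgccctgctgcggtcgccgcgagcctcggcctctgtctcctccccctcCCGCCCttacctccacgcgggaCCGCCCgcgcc
SCD5: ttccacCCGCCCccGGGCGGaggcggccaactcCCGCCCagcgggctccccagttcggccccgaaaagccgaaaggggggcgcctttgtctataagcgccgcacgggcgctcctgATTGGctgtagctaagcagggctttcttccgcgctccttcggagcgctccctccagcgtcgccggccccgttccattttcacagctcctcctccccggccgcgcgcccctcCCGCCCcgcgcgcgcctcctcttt

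SCD held 2 CCAAT boxes, starting 229 and 186 bases before the start, and SCD5 held 1, in the reverse orientation, 135 bases before it. At least 1 CCAAT box was present in 32.0% of all 35116 promoter windows of this length, and 2 or more in 9.53%. GC boxes numbered 2 in SCD and 4 in SCD5, and no marked motif overlapped another. At least 1 GC box was in 42.6% of all windows and in 62.1% of the windows of genes listed in these tables, and 2 or more were in 24.3% and 38.1% of them. The letters TCACNCCAC, a form of the sterol regulatory element bound by SREBP, were searched on both strands and were in 0 of the 9 members' windows with an entry and in 0.883% of all windows. The E-box CACGTG, part of the element bound by ChREBP, was present in the ELOVL5 window alone among these 9, and in 6.34% of all windows. The windows of ACLY and ELOVL6 lie inside the annotated span of the gene, so they do not cover the bases before its outermost start. A match describes letters only and does not show that a factor binds.

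Of the chain synthesis enzymes, FASN alone had a counting interval off 1. ACLY (on chromosome 17 from 41866917 to 41930545, GRCh38.p14) was at 75.7 RPKM in the HADH-S library and 72.2 RPKM in the control library, from 2272 and 2108 reads. Its RPKM ratio of 1.05 had a 95% counting interval that includes 1 (0.988 to 1.11). The interval is an exact conditional (Clopper-Pearson) one on recovered reads and covers counting error only. The reads carry no molecular identifiers that would tell molecules from copies.

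ACACA, the cytosolic carboxylase and the committed step of the pathway, was at 12.8 RPKM in overexpressing cells and 13.5 RPKM in control cells, from 895 and 916 reads. Its ratio of 0.950 had an interval of 0.866 to 1.04. FASN (chromosome 17, 82078338 to 82098236) was at 32.0 RPKM in overexpressing cells and 27.3 RPKM in control cells, from 1888 and 1564 reads. It was the single member with an interval above 1, its ratio of 1.17 having bounds of 1.10 and 1.26. Among the 3205 genes with at least 1000 reads over both libraries, 5.09% had a ratio at or above it, and it lay inside the central 95% of them (0.826 to 1.22). All 3 genes lie on chromosome 17, and their deposited transcripts are mostly coding, from 71.4% of the length in ACACA to 89.0% in FASN.

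**Figure D1:**
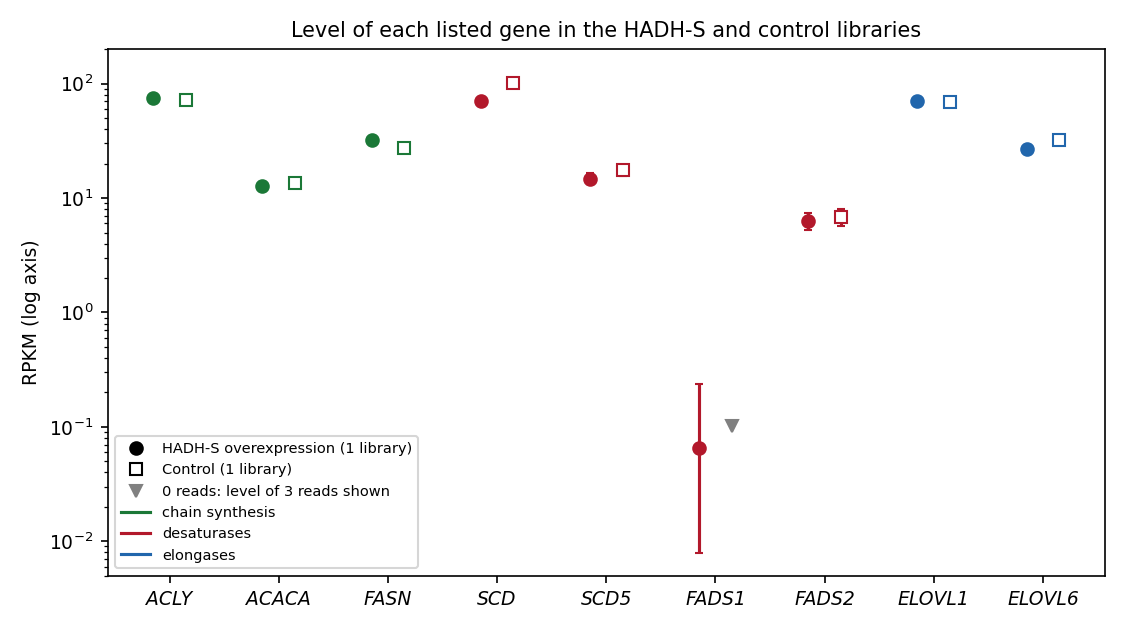
Level of each listed gene in RPKM (log axis) in the HADH-S overexpression library (filled circles) and the control library (open squares), 1 library each, with exact 95% Poisson counting intervals. SCD is at 70.0 RPKM in overexpressing cells and 102 RPKM in control cells, and FADS1, with 2 reads in the HADH-S library and 0 in the control library, lies far under the other genes (the grey triangle is the level of 3 reads).

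All 3 evaluated desaturases had ratios below 1, SCD and SCD5 with their whole counting interval. SCD (chromosome 10, 100347233 to 100364826) introduces the first double bond into palmitate and stearate, giving palmitoleate and oleate. It was at 70.0 RPKM from 2557 reads in the HADH-S library and at 102 RPKM from 3624 reads in the control library. The ratio of 0.686 had an interval of 0.652 to 0.722, and the log2 difference, computed on RPKM + 1, was -0.54. SCD had the highest level of all members in the control, whereas with HADH-S it was level with ELOVL1 (70.3 RPKM) and just under ACLY (75.7 RPKM), with Poisson intervals that overlap both. It ranked 1018 among the listed genes of the HADH-S library and 640 among those of the control library.

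Well-covered genes give a description of how far this lies out. Among the 3205 genes with at least 1000 reads over both libraries, 3 had a ratio at or below that of SCD, including SCD itself, and 95% of them lay between 0.826 and 1.22. The other two, chosen after their values were seen, were LPIN1, a phosphatidate phosphatase of triglyceride synthesis (27.6 RPKM in overexpressing cells, 41.2 RPKM in control cells), and MAP1LC3C, an autophagy gene (91.1 RPKM in overexpressing cells, 133 RPKM in control cells). In these 3205 genes the log2 ratios had an SD of 0.15, which is 2.20 times what counting error predicts, so counting intervals are narrower than the difference between 2 libraries warrants.

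SCD5 (chromosome 4, 82629539 to 82798796), a paralogue known to be expressed chiefly in brain, was at 14.8 RPKM in overexpressing cells and 17.5 RPKM in control cells, from 313 and 360 reads. Its ratio of 0.846 had an interval of 0.724 to 0.987, whose upper bound is close to 1. Of all genes averaging at least 1 RPKM, 9.03% had a lower log2 value than SCD5. Within each library SCD exceeded SCD5 per length by a factor of 4.73 with HADH-S and 5.83 in the control. That is 0.812 of the control proportion, with a counting interval of 0.690 to 0.955. SCD contributed 82.6% of the summed RPKM of both paralogues with HADH-S and 85.4% in the control. The deposited transcripts code for 359 codons in SCD and 330 in SCD5, and only 20.5% of the SCD transcript is coding.

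FADS2 and FADS1 are the front-end desaturases that act in making polyunsaturated fatty acids, and they lie next to each other on chromosome 11. FADS2 was at 6.32 RPKM in overexpressing cells and 6.78 RPKM in control cells, from 136 and 142 reads, a ratio of 0.932 with an interval of 0.731 to 1.19. At this depth a difference of that size was not detectable. FADS1 had 2 reads in the HADH-S library, equal to 0.0658 RPKM (exact Poisson interval 0.00797 to 0.238), and was not listed in the control library, where 3 reads would be 0.101 RPKM. No fold is given for it, since both values lie at or under the floor of 3 reads. FADS1 was therefore under the filter, an average of at least 1 RPKM over both libraries, and enters no median or count.

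RefSeq annotates FADS1 from 61799627 to 61817003 and FADS2 from 61816203 to 61867354, so these genes overlap, and whether reads were counted by strand is not stated. The third family member, FADS3, was at 17.3 RPKM in overexpressing cells and 16.2 RPKM in control cells (ratio 1.07, interval 0.875 to 1.30), the highest of the cluster's desaturases in both libraries. Of the flanking genes, FEN1 was at 73.8 RPKM in overexpressing cells and 78.0 RPKM in control cells, and TMEM258 at 112 RPKM in overexpressing cells and 94.5 RPKM in control cells. Of these 5 genes, FADS1 and then FADS2 had the lowest levels in both libraries. Listed neighbours farther out were lower than FADS2: DAGLA and RAB3IL1, and MYRF at 1.26 RPKM in overexpressing cells and 0.772 RPKM in control cells (ratio 1.63, interval 1.03 to 2.63).

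The elongases listed differed from each other. ELOVL6 (chromosome 4, 110045846 to 110199202) lengthens palmitate to stearate, the step before SCD. It was at 26.8 RPKM in the HADH-S library and 32.4 RPKM in the control library, from 1204 and 1417 reads, a ratio of 0.826 with an interval of 0.765 to 0.893. Of the 3205 well-covered genes, 2.65% had a ratio at or below it. Like FASN, ELOVL6 lay inside the central range of these genes, its ratio of 0.8265 being just above the lower bound of 0.8256. ELOVL1 (chromosome 1, 43363401 to 43368011), which extends saturated and monounsaturated chains to very long ones, was at 70.3 RPKM in overexpressing cells and 68.7 RPKM in control cells, from 796 and 756 reads. Its ratio of 1.02 had an interval of 0.926 to 1.13.

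Within each library the level of ELOVL6 was 0.381 of that of ELOVL1 with HADH-S and 0.472 of it in the control, a proportion 0.807 times that of the control (interval 0.710 to 0.917). ELOVL5, which elongates polyunsaturated chains, was found in neither table by symbol or Ensembl identifier and was not evaluated. A gene missing from both tables may have had no reads or may not have been in the annotation used, so no level is inferred for it.

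**Figure D2:**
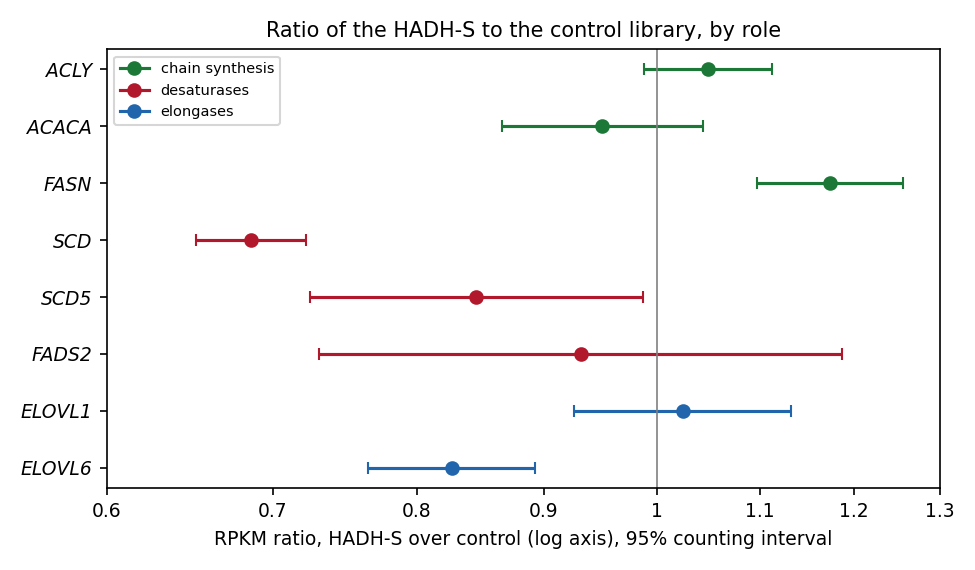
RPKM ratio of the HADH-S to the control library for the 8 genes with reads in both (log axis), coloured by role, with exact 95% counting intervals. SCD, SCD5 and ELOVL6 lie below 1 with their whole interval, FASN lies above 1, and the other 4 intervals include 1.

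Counts of these differences were set beside all genes as a description only, because the members were chosen with earlier results of these data known. Of the 8 evaluated members, 3 had an interval below 1 (SCD, SCD5 and ELOVL6), against 11.6% of the 10331 genes averaging at least 1 RPKM. The 1 member above 1 (FASN) compares with 13.8% of all genes. Intervals shrink with reads, and 6 of the members, without SCD5 and FADS2, were among the 3205 well-covered genes. Of these 6, 2 lay below 1 and 1 above, beside 20.4% of the well-covered genes below and 16.8% above. No member reached a 2-fold difference on the log2(RPKM + 1) scale, which 0.3% of all genes exceeded upward and 0.0484% downward. At 1.2-fold on that scale, 2 members were lower (SCD and ELOVL6), against 6.76% of all genes, and 0 were higher, against 11.5%. These counts depend on processing, since ELOVL6 and FASN lie near the cutoff. With the length trend removed, ELOVL6 moved from -0.27 to -0.23 and FASN from 0.22 to 0.28. The median log2 value over the 8 members was -0.08, and over all 10331 genes it was 0.01, with 95% of genes between -0.36 and 0.49.

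Between the arms of the pathway, the median was above 0 for chain synthesis and below 0 for later modification. The median log2 value was 0.07 over the 3 chain synthesis genes, -0.23 over the 3 evaluated desaturases and -0.12 over the 2 evaluated elongases. Desaturases and elongases together had a median of -0.23, so that chain synthesis stood 0.29 above them, and 0.23 above them without SCD. With so few genes these medians rest on single members: 0.07 is the value of ACLY, whose counting interval includes 1, and -0.23 that of SCD5. The chain synthesis genes summed to 121 RPKM in overexpressing cells and 113 RPKM in control cells. The desaturases summed to 91.1 RPKM in overexpressing cells and 126 RPKM in control cells, and the elongases to 97.1 RPKM in overexpressing cells and 101 RPKM in control cells. In reads, the ratio was 1.07 for chain synthesis (interval 1.03 to 1.12) and 0.773 for desaturases and elongases (0.745 to 0.802). Without SCD the second ratio was 0.891 (0.843 to 0.941). Within chain synthesis only FASN had an interval above 1, and those of ACLY and ACACA include 1. Intervals of summed reads cover counting error only, and the spread of well-covered genes was 2.20 times what that error predicts.

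The widest gap between single members was that of SCD and FASN. The level of SCD was 2.19 times that of FASN in the HADH-S library and 3.74 times in the control library, a proportion 0.584 times that of the control (interval 0.537 to 0.636). Proportions of this kind do not depend on how the libraries are scaled. For ELOVL6 over FASN the levels stood at 0.836 with HADH-S and 1.19 in the control, a quotient of 0.704 (0.635 to 0.780). The level of FASN was 2.50 times that of ACACA, the enzyme before it, in overexpressing cells and 2.02 times in control cells, a quotient of 1.24 (1.10 to 1.39).

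**Figure D3:**
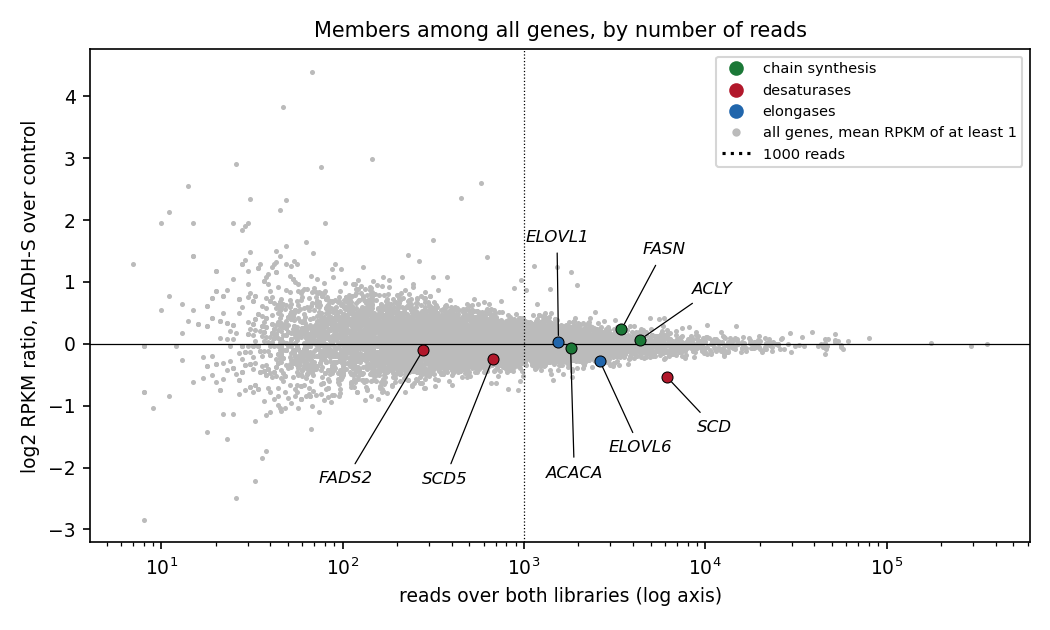
Each point is a gene averaging at least 1 RPKM with reads in both libraries, placed by its reads over both libraries (log axis) and its log2 RPKM ratio of HADH-S over control; members are coloured by role. SCD, with 6181 reads, lies below the other genes of similar read number, and ELOVL6 lies towards the lower edge of them.

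Partner genes of the pathway mostly had counting intervals that include 1. Of 14 genes that supply acetyl-CoA and malonyl-CoA or belong to mitochondrial synthesis, 9 were evaluated, with a median log2 value of 0.05. The mitochondrial citrate carrier SLC25A1 was at 53.3 RPKM in overexpressing cells and 47.1 RPKM in control cells (ratio 1.13, interval 1.002 to 1.28), and CBR4, a subunit of the mitochondrial ketoacyl reductase, at 7.22 RPKM in overexpressing cells, from 173 reads against 233 in control cells (ratio 0.722, interval 0.590 to 0.883). These were the only ones of the 9 with an interval off 1. The malic enzyme ME1 and the lipogenic regulator THRSP were not listed in either table.

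The endoplasmic reticulum elongation cycle has further steps beside the elongase itself. Of 6 evaluated genes, TECR, the reductase of its last step, was at 66.7 RPKM in overexpressing cells and 55.1 RPKM in control cells (ratio 1.21, interval 1.07 to 1.38). HACD3, a dehydratase of the cycle, was at 93.8 RPKM in overexpressing cells and 105 RPKM in control cells (ratio 0.892, interval 0.816 to 0.974). The median of these 6 was 0.03.

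Desaturases take electrons through cytochrome b5 and its reductases. CYB5R3 was at 32.5 RPKM in overexpressing cells and 26.6 RPKM in control cells (ratio 1.22, interval 1.09 to 1.37), and CYB5R1 at 21.8 RPKM in overexpressing cells and 17.3 RPKM in control cells (ratio 1.26, interval 1.04 to 1.53). The third listed reductase, CYB5R4, named after its values were seen, was at 5.79 RPKM in overexpressing cells and 6.37 RPKM in control cells, with an interval that includes 1 (ratio 0.909, 0.787 to 1.05). The intervals of the cytochromes CYB5A and CYB5B include 1 as well. The 7 evaluated genes of this list had a median of 0.09, with 2 intervals above 1 and 0 below. Over all 22 partner genes of the supply, elongation and desaturation lists, 4 had an interval above 1 and 2 below, beside 13.8% of all genes above and 11.6% below, and the median was 0.05.

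Regulators of lipogenic transcription differed gene by gene. SREBF1, which encodes the SREBP most tied to fatty acid genes, was at 10.9 RPKM in overexpressing cells and 11.0 RPKM in control cells, from 324 and 316 reads (ratio 0.997, interval 0.851 to 1.17). SREBF2, tied more to cholesterol genes, was at 26.1 RPKM in overexpressing cells and 29.8 RPKM in control cells (ratio 0.878, interval 0.803 to 0.959). INSIG1, which retains SREBP in the endoplasmic reticulum, was at 13.8 RPKM in overexpressing cells and 21.4 RPKM in control cells (ratio 0.647, interval 0.554 to 0.754).

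INSIG2 (ratio 0.670, interval 0.463 to 0.962) and SPRING1, a factor of SREBP processing (0.890, interval 0.804 to 0.986), were likewise lower with HADH-S. NR1H3, the LXR alpha receptor, had 23 reads in overexpressing and 3 in control cells (ratio 7.46, interval 2.25 to 38.8), while its relative NR1H2 had a ratio of 1.25 (0.969 to 1.61). MLXIPL, which encodes ChREBP, had 6 reads in overexpressing and 0 in control cells, under the filter. In all, 4 of the 12 evaluated regulators had an interval below 1 and 1 above, with a median of 0.00, beside 11.6% of all genes below and 13.8% above. Whether any of these regulators had a part in the SCD difference was not tested.

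Cholesterol synthesis, the sister pathway under SREBP control, was lower as a list, and SCD lay within its range. Of its 20 genes, 19 had a negative log2 value and 14 had an interval below 1, with 0 above, and the median was -0.27. Of all 10331 genes, 47.8% had a negative value, 11.6% an interval below 1 and 13.8% one above. Of the 20, 3 lay lower than SCD and 0 lay higher than FASN, whose log2 value was 0.22. HMGCS1, the synthase that starts the mevalonate route, was at 10.4 RPKM in overexpressing cells and 15.7 RPKM in control cells (ratio 0.663, interval 0.581 to 0.755), and MVK at 5.53 RPKM in overexpressing cells and 9.07 RPKM in control cells. ELOVL6, at -0.27, was at the median of that list. The opposite pathway, beta-oxidation, had 16 evaluated genes beside HADH, with a median of 0.05, 4 intervals above 1 and 2 below. No test of a difference between these lists exists with 1 library per condition, and the lists were chosen with earlier results of these data known.

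**Figure D4:**
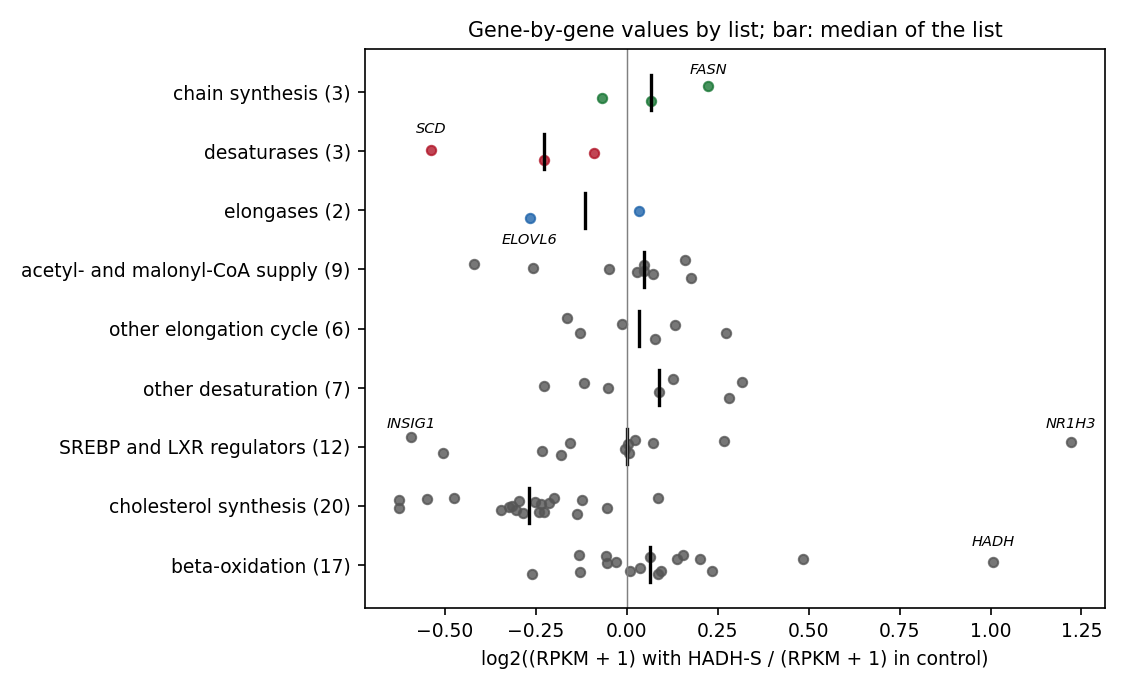
Each point is a gene, placed by log2 of (RPKM + 1) with HADH-S over (RPKM + 1) in the control, in rows by list with the number of evaluated genes in brackets; the bar is the median. The chain synthesis bar is at 0.07, the desaturase bar at -0.23 and the elongase bar at -0.12, and the cholesterol synthesis bar is at -0.27.

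In order of level, the HADH-S library ran ACLY, ELOVL1, SCD, FASN, ELOVL6, SCD5, ACACA, FADS2 and FADS1. The control library ran SCD, ACLY, ELOVL1, ELOVL6, FASN, SCD5, ACACA and FADS2, with FADS1 not listed. SCD thus held the third place with HADH-S and the first in the control, and FASN stood above ELOVL6 with HADH-S and below it in the control. With HADH-S, the Poisson intervals of ELOVL1 (65.5 to 75.4 RPKM) and SCD (67.3 to 72.8 RPKM) overlap, as do those of SCD5 and ACACA, whereas those of FASN and ELOVL6 do not. In control cells, ACLY (69.2 to 75.4 RPKM) and ELOVL1 (63.9 to 73.8 RPKM) overlap, and SCD (98.7 to 105 RPKM) lies clear of both. Neither SCD5 and ACACA nor ELOVL6 and FASN overlap there.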

How the data were processed

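RNA of 1 library per condition was measured. The authors deposited 1 RPKM value per gene and library, per the file headers, each row naming a symbol, Ensembl gene and transcript, coding bounds and transcript length. The submitters' processing notes name fastp 0.23.2, SAMtools 1.9, MACS2 1.4.2, ChIPseeker and GRCh38 for all samples. For RNA, the aligner, counter and strand setting are not stated. Each RPKM times length was a whole multiple of 1 step per library: 100% of values came out whole within 0.01 reads. The lowest listed value was 1 read in each table, with no row at 0, so a gene listed once was taken as 0 in the other table. A gene in neither table was not evaluated.

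Log2 values used a pseudocount of 1, which understates the change of low genes, and a mean RPKM of at least 1 as filter. Python 3.11.15 with SciPy 1.17.1 was used. Steps were tested on simulated reads drawn with counting error only, so that test does not cover the wider spread seen between the 2 libraries. Promoters are from RefSeq (GRCh38.p14), which had entries for 9 of the 10 genes and none for FASN. The members and lists were chosen with earlier results of these data known. Named were all members, HADH, overlapping or flanking genes, and list genes with an interval off 1. No test between conditions was made. Alternatives were other pseudocounts, rescalings, filters and removal of a length trend.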

Additional observations from a re-analysis of the deposited data

How the results depend on the processing

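No paired analysis was possible because each condition has 1 library, and for the same reason no replicate could be left out. Over 7 alternatives (pseudocounts of 0.1, 0.5 and 5, 3 rescalings and a correction for transcript length), all 56 values of the 8 members stayed within their counting intervals. SCD ranged from -0.56 to -0.51, ELOVL6 from -0.29 to -0.23, SCD5 from -0.25 to -0.18 and FASN from 0.20 to 0.28. ACACA (0.0033) and ELOVL1 (-0.00099) changed sign after the length correction, both with intervals that include 0. Under the rescalings the median log2 value over all genes lay between -0.01 and 0.01. With a 99% counting interval, 2 members instead of 3 lay below 1, SCD5 being lost. The desaturase value was -0.47 as a log2 ratio of summed RPKM, where SCD holds most of the sum. The contrast of chain synthesis with desaturases and elongases lay between 0.23 (without SCD) and 0.31. The counts of all genes past 2-fold, 31 higher and 5 lower, followed the treatment of low genes: 69 and 15 with a pseudocount of 0.1, 8 lower with 0.5, 8 and 0 with 5, 9 lower without a filter, 12 and 0 among genes averaging at least 5 RPKM, and 1193 and 698 at a fold of 1.2. Depth limits FADS1 and FADS2 most.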
